A study of Mus musculus with 24 samples.

Results

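The RNA of 10 genes for NF-kB subunits and inhibitors was followed in mouse basophils after antigen was removed, with and without the mRNA-decay factor tristetraprolin (TTP). The genes were taken by name: Nfkbia, Nfkbib, Nfkbie, Nfkbid and Nfkbiz, which encode IkB proteins, Tnfaip3, which encodes the deubiquitinase A20, and Nfkb1, Nfkb2, Rel and Relb, which encode subunits. All 10 were found among the 15737 genes of the deposited table, and all 10 passed the filter on low counts, which left 12936 genes to test. Nfkbid and Nfkbiz were called lower within 1 h of antigen removal in both genotypes, although the 1 h calls of Nfkbiz were lost without single libraries. Tnfaip3 and Rel had fallen by 4 h in both genotypes. Nfkb1 in both genotypes and Nfkbia in WT were also called lower at 4 h, but not when libraries were scaled by their totals alone. None of the 10 differed between the genotypes past the test at 0, 1, 2 or 4 h.

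NF-kB is a family of dimeric transcription factors. In resting cells IkB proteins hold the dimers in the cytoplasm. Crosslinking of the IgE receptor, as of many immune receptors, leads to phosphorylation and destruction of the IkB proteins, and the freed dimers switch on cytokine and chemokine genes in basophils and mast cells. The same dimers switch on genes for their own inhibitors, including IkB-alpha and A20, and for some of their own subunits, so that signalling limits itself. TTP, encoded by Zfp36, binds AU-rich elements in the 3' untranslated region (UTR) of cytokine mRNAs and recruits enzymes that shorten the poly(A) tail. Several of the mRNAs of the NF-kB circuit hold such elements.

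Basophils were grown from the bone marrow of wild-type (WT) mice and of mice lacking TTP (TTP-KO) over 7 days in the presence of IL-3 (0.3 ng/mL). All groups received IgE specific for the hapten TNP (1 µg/mL) as well as s4U at 150 µM, the nucleoside 4-thiouridine that cells build into new RNA, on day 6, were enriched for CD49b+ cells on magnetic beads on day 7, were given TNP-coupled ovalbumin (TNP-OVA, 10 ng/mL) for 1.5 h with s4U still present, and were washed. Cells were then held for 0, 1, 2 or 4 h without antigen or s4U, which gives 8 groups of 3 libraries, 24 in all. There was no group without antigen, so 0 h is the end of the stimulus and no change here is a change from rest. The sources used here give neither the age of the mice nor the nature of the TTP allele. They also do not say if replicate libraries stand for different mice or cultures, so the p-values rest on a spread between libraries that may be technical only.

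Libraries were made from the 3' ends of polyadenylated RNA and held 8839260 to 25372890 reads. Levels are given as CPM (reads scaled to a common library total, with TMM factors), in the order of the libraries A, B and C of a group. The letters are those of the table's columns, and the labels do not say if a letter matches libraries across groups. In bulk RNA, fewer cells of a type and less RNA per cell cannot be told apart. The 13 basophil marker genes were detected in every group. Their sum was 45339 to 47067 CPM in WT and 44449 to 46047 CPM in TTP-KO at 0 h and 32948 to 35911 and 34208 to 35405 CPM at 4 h, with 5 of the 13 called lower and 1 higher at 4 h in each genotype. Among them, Mcpt8, a basophil protease, lay between 11810 and 15114 CPM. Fcer1a, a chain of the IgE receptor, lay at 263 to 391 CPM in WT and 366 to 418 CPM in TTP-KO at 0 h. At 4 h it lay at 72.7 to 86.4 and 67.4 to 84.8 CPM. Zfp36 itself lay at 223, 269 and 219 CPM in WT and 158, 210 and 186 CPM in TTP-KO at 0 h. Its log2 difference, TTP-KO over WT, was -0.36 ± 0.24 (SE) at 0 h, -1.45 ± 0.24 at 1 h, -0.92 ± 0.24 at 2 h and -0.87 ± 0.24 at 4 h, with edgeR adjusted p of 0.796, 1.16e-04, 0.0652 and 0.0422. The transcript was thus still counted in the TTP-KO libraries, and a 3' tag may lie outside the part of the gene that was disrupted, so this does not check the labels.

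The AU-rich sites are shown first because TTP is the variable of the study. The core that TTP binds, TATTTAT, was searched on the transcript strand of the 3' UTR of 1 annotated transcript per gene (GENCODE, build GRCm38). It was found in 3 of the 10 genes, Nfkbia, Tnfaip3 and Rel. Of the 12734 tested genes with an annotated 3' UTR, 30.7% held it, so the share in the 10 genes was about that of all genes. The longer site TTATTTATT, which contains the core, was in 3 of the 10 genes, against 8.39% of tested genes. In the 30-base windows printed here, written 5' to 3' as DNA, capitals mark the core.

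Nfkbia, from base 286 after the stop codon, chr12:55489607-55489636, minus strand: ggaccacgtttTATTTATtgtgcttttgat
Nfkbia, from base 475 after the stop codon, chr12:55489418-55489447, minus strand: tctaagatgtaTATTTATtaaacagatttt
Tnfaip3, from base 1669 after the stop codon, chr10:19001033-19001062, minus strand: tgtgaaatggtTATTTATacttatagaaag
Rel, from base 2361 after the stop codon, chr11:23739875-23739904, minus strand: taaatagtagcTATTTATtagaaaaggggg
Rel, from base 4403 after the stop codon, chr11:23737833-23737862, minus strand: ctcccagacttTATTTATtttttttagctt

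The first window of Nfkbia and the second of Rel hold the longer site. The 3' UTRs of Nfkbia, Tnfaip3 and Rel are 512, 1821 and 5418 bases long, against a median of 1183 over the tested genes. Nfkbid and Nfkbiz, the pair called lower from 1 h on, have no copy of the core in 3' UTRs of 559 and 1355 bases. A match in these letters is not evidence of binding.

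The promoters are shown because several of these genes moved together and because NF-kB is known to act on its own genes. The kappaB consensus, the 10-base sequence that NF-kB dimers bind, was searched on both strands of the RefSeq promoter table (build GRCm38.p6), which gives 250 bases before and 50 after each start site. Of the 10 genes, 7 were in the table. At least 1 match stood in 6 of these 7 (Nfkbia, Nfkbid, Nfkbie, Tnfaip3, Nfkb2 and Rel), and in 8 of their 12 promoters, against 9.55% of the 27025 genes and 8.46% of the 32851 promoters in the table. Nfkbib had none in its window. Nfkbiz, Nfkb1 and Relb were not matched. Printed below are promoters with matches from genes called lower in at least 1 genotype. Nfkbie and Nfkb2 also had matches, showed no called change and are not printed. Capitals mark the stretches covered by matches on either strand.

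Nfkbia, chr12:55492598-55492897, minus strand: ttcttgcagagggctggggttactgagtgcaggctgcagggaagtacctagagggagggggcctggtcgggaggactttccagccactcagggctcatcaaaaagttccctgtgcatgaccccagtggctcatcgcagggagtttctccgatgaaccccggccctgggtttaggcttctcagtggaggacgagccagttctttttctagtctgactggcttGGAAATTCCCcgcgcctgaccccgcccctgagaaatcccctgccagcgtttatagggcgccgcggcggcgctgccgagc
Nfkbid, the second of 3 start sites, chr7:30422156-30422455, plus strand: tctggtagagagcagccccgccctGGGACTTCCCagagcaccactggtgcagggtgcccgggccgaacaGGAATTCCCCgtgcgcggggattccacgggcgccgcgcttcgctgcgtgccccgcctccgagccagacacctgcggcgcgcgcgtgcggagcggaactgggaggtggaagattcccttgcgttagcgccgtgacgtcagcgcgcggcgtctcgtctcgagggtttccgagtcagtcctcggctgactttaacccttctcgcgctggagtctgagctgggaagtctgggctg
Tnfaip3, the first of 2 start sites, chr10:19015361-19015660, minus strand: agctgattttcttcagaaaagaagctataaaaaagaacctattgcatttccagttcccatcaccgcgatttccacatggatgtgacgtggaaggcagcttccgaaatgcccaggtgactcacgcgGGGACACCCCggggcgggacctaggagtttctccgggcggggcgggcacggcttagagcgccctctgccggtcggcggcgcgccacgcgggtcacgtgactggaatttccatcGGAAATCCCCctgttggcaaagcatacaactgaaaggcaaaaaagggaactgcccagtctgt
Rel, chr11:23770920-23771219, minus strand: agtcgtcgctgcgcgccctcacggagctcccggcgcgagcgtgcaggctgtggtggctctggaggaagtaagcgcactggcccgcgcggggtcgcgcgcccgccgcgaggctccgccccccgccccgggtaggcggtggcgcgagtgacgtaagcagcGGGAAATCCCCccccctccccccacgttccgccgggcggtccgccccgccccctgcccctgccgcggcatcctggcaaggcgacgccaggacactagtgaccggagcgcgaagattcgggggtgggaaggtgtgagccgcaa

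Counted from the start site, the match of Nfkbia begins at -29. Those of Nfkbid begin at -226 and -181, those of Tnfaip3 at -125 and -12, and those of Rel, which overlap, at -92 and -91. No binding was measured here.

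The 10 genes took 0.148 to 0.214% of the reads of a library. Nfkbia, which encodes IkB-alpha, the inhibitor whose gene NF-kB itself induces, gave 55.9 to 78.7% of those reads. Reads come from 1 end of each transcript and were not scaled by transcript length. Nfkbid stood second at 0 h, and by 4 h it lay below Nfkb1 in all libraries.

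**Figure D1:**
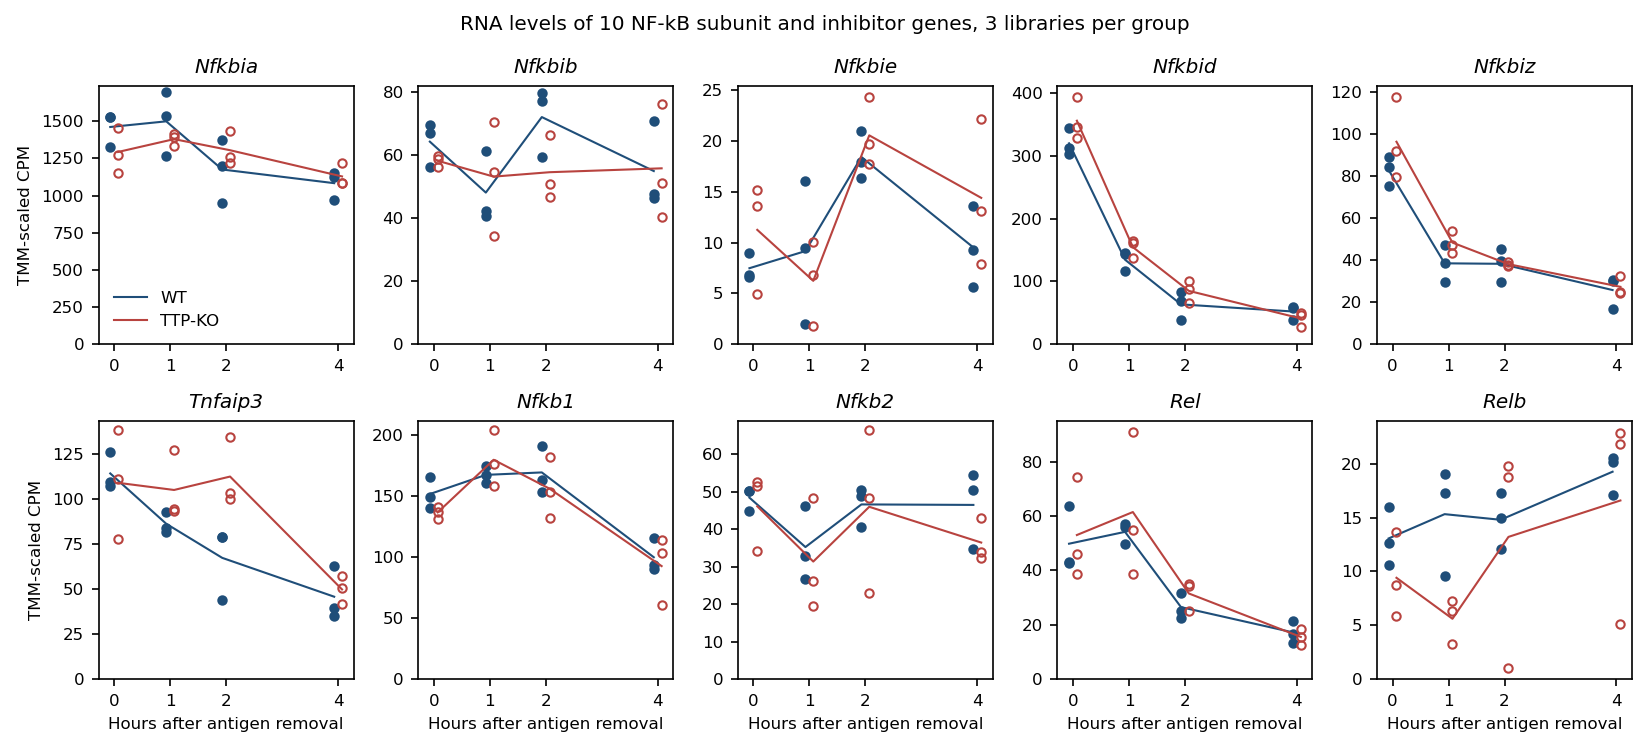
TMM-scaled CPM (vertical axes, each from 0) against hours after antigen removal for the 10 genes; filled points are WT libraries, open points TTP-KO libraries, and lines join the means of 3 libraries. Nfkbid falls from 303 to 393 CPM at 0 h to 27.4 to 59.5 CPM at 4 h in both genotypes, and the 2 genotypes separate in Tnfaip3 at 2 h.

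Of the classical IkB genes, Nfkbia alone had a called change, in WT at 4 h. It lay at 1531, 1529 and 1325 CPM in WT at 0 h, at 1534, 1265 and 1700 CPM at 1 h, at 952, 1377 and 1198 CPM at 2 h and at 971, 1153 and 1127 CPM at 4 h. In TTP-KO it lay at 1152, 1458 and 1271 CPM at 0 h, at 1331, 1393 and 1416 CPM at 1 h, at 1433, 1263 and 1220 CPM at 2 h and at 1082, 1085 and 1220 CPM at 4 h. All 3 WT libraries of 4 h lay below all 3 of 0 h, while the TTP-KO libraries of 0 and 4 h overlapped. Over all genes, libraries lay wholly below those of 0 h in 10%, 13.7% and 16.1% at 1, 2 and 4 h in WT and in 10.3%, 14.4% and 17.2% in TTP-KO, and among the 10 genes in 3, 4 and 6 and in 2, 3 and 5. Libraries lay wholly above those of 0 h in 8.91%, 11.1% and 15.7% of all genes in WT and 7.83%, 13.2% and 16.6% in TTP-KO. Among the 10 genes those counts were 0, 1 and 1 in WT and 1, 1 and 0 in TTP-KO. In WT the level of Nfkbia at 4 h was 74.1% of that at 0 h (log2 change -0.43 ± 0.12, adjusted p = 0.00535). In TTP-KO it was 87.3% (-0.20 ± 0.12, adjusted p = 0.247). The WT call held by DESeq2 and with median-ratio factors in place of TMM factors, but not with libraries scaled by their totals alone. There the change was -0.11 (adjusted p = 0.553), and that scaling moved the median of all genes at 4 h by 0.32 in WT and 0.37 in TTP-KO. The difference between the genotypes' changes was 0.24 ± 0.16 (95% interval -0.09 to 0.56, adjusted p = 0.785).

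Nfkbib, which encodes IkB-beta, lay between 34.5 and 79.7 CPM over the 24 libraries, and its log2 change from 0 h ran from -0.42 to 0.16 over the 6 comparisons, none of them called. Nfkbie, which encodes IkB-epsilon, was the scarcest of the inhibitors. Its libraries of 0 h held 6.83, 9.01 and 6.62 CPM in WT and 4.99, 15.2 and 13.6 CPM in TTP-KO, and those of 2 h held 21.0, 17.9 and 16.4 CPM in WT and 19.7, 24.3 and 17.7 CPM in TTP-KO. Every library of 2 h lay above every library of 0 h in both genotypes, as in 11.1% of all genes in WT and 13.2% in TTP-KO. The log2 changes, 1.30 ± 0.63 in WT (adjusted p = 0.224) and 0.87 ± 0.62 in TTP-KO (adjusted p = 0.449), did not pass the test. At this level a single library could hold 1.79 CPM and its neighbour 10.1 CPM, and the gene's biological coefficient of variation was 0.514, against 0.129 for Nfkbia.

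Nfkbid and Nfkbiz, which encode nuclear IkB proteins, had the lowest log2 changes of the 10 at 4 h. The interval of Nfkbiz overlapped those of Rel and Tnfaip3, and Bcl3, an IkB-family gene outside the 10, had no called change. Nfkbid encodes IkB-NS, which enters the nucleus and modifies the action of NF-kB on chosen cytokine genes. It lay at 312, 303 and 345 CPM in WT at 0 h, at 145, 143 and 116 CPM at 1 h, at 38.4, 69.4 and 82.7 CPM at 2 h and at 39.2, 59.5 and 57.8 CPM at 4 h. In TTP-KO it lay at 346, 329 and 393 CPM, then 165, 138 and 161 CPM, then 65.9, 101 and 88.1 CPM, then 49.6, 46.2 and 27.4 CPM. Libraries of 0 h overlapped with those of no later time in either genotype. Taken time by time, 10% to 16.1% of all genes in WT and 10.3% to 17.2% in TTP-KO also lay wholly below 0 h. In WT 42.1% of the 0 h level was left at 1 h, 19.9% at 2 h and 16.3% at 4 h, with log2 changes of -1.25 ± 0.21, -2.33 ± 0.21 and -2.62 ± 0.22 (adjusted p = 5.05e-05, 7.31e-12 and 9.09e-14). In TTP-KO 43.4%, 23.9% and 11.5% was left, with log2 changes of -1.21 ± 0.21, -2.07 ± 0.21 and -3.11 ± 0.22 (adjusted p = 8.55e-05, 1.82e-10 and 5.04e-16). Nfkbid thus fell at each time, against 0 h, past the test in both genotypes, and the genotypes' changes to 4 h differed by -0.50 ± 0.29 (95% interval -1.08 to 0.09, adjusted p = 0.678).

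Nfkbiz encodes IkB-zeta, a nuclear co-activator that secondary NF-kB genes such as Il6 need. It lay at 84.4, 89.1 and 75.5 CPM in WT at 0 h, at 29.5, 38.9 and 47.3 CPM at 1 h, at 29.9, 45.4 and 39.7 CPM at 2 h and at 16.8, 30.6 and 30.1 CPM at 4 h. In TTP-KO it lay at 118, 79.6 and 91.9 CPM, then 54.1, 47.5 and 43.7 CPM, then 37.5, 37.6 and 39.4 CPM, then 32.4, 24.6 and 25.1 CPM. As with Nfkbid, each later library lay below all libraries of 0 h of its genotype. The shares of all genes at single times were 10% to 16.1% in WT and 10.3% to 17.2% in TTP-KO. The log2 change to 1 h was -1.11 ± 0.25 in WT (adjusted p = 0.00529) and -0.99 ± 0.25 in TTP-KO (adjusted p = 0.0142). By 4 h it was -1.68 ± 0.26 in WT (adjusted p = 1.14e-06) and -1.82 ± 0.26 in TTP-KO (adjusted p = 2.20e-07), with 31.1% and 28.4% left. The 1 h calls were lost without WT 1 h library A (adjusted p = 0.0807) and without TTP-KO 0 h library A, 1 h library B or 1 h library C (adjusted p = 0.157, 0.0633 and 0.0985), while the calls at 2 and 4 h held under every alternative run.

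Tnfaip3, whose protein A20 removes ubiquitin chains from the signalling complexes upstream of the IkB kinase, was first called lower at 2 h in WT and at 4 h in TTP-KO. It lay at 107, 109 and 126 CPM in WT at 0 h, at 81.8, 83.8 and 92.7 CPM at 1 h, at 43.8, 78.9 and 78.9 CPM at 2 h and at 39.3, 62.9 and 34.8 CPM at 4 h. In TTP-KO it lay at 138, 77.4 and 111 CPM, then 94.2, 127 and 93.3 CPM, then 99.8, 103 and 134 CPM, then 50.4, 57.0 and 41.7 CPM. The WT libraries of 1, 2 and 4 h all lay below those of 0 h, whereas the TTP-KO libraries lay below those of 0 h at 4 h alone, against the shares of all genes given with Nfkbia (10% to 16.1% in WT, 17.2% in TTP-KO at 4 h). By 4 h the log2 change was -1.32 ± 0.23 in WT (adjusted p = 1.51e-05) and -1.13 ± 0.23 in TTP-KO (adjusted p = 1.49e-04). At 2 h it was -0.76 ± 0.23 in WT (adjusted p = 0.0195) and 0.04 ± 0.22 in TTP-KO (adjusted p = 0.978). The WT call at 2 h was lost without WT 2 h library A (-0.51, adjusted p = 0.222), without WT 0 h library C (-0.68, adjusted p = 0.082) and with libraries scaled by totals alone (-0.52, adjusted p = 0.143).

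Among the 40 comparisons of TTP-KO with WT, Tnfaip3 at 2 h had the lowest p. All 3 TTP-KO libraries lay above all 3 WT libraries there, and the same was true at 1 h. Over all genes, TTP-KO libraries lay wholly above WT libraries in 5.82% at 1 h and 6.13% at 2 h. The log2 difference at 2 h was 0.74 ± 0.23 (95% interval 0.29 to 1.19, 1.67-fold, unadjusted p = 0.00198), which did not pass after adjustment over all genes (adjusted p = 0.175). Over its 12 alternatives the adjusted p ran from 0.0437, with no filter on low counts, to 0.913, without WT 2 h library A, where the difference was 0.50. At 1 h the difference was 0.28 ± 0.22 and at 4 h 0.12 ± 0.23. The change from 0 to 2 h differed between the genotypes by 0.80 ± 0.32 (95% interval 0.16 to 1.44), with an adjusted p of 0.63. The higher level of Tnfaip3 in TTP-KO at 2 h is therefore not established by the test over all genes.

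Of the subunit genes, Rel and Nfkb1 fell and Nfkb2 and Relb did not pass the test. Rel, which encodes c-Rel, the subunit most restricted to blood cells, lay at 43.2, 63.8 and 42.6 CPM in WT at 0 h, at 55.9, 57.1 and 49.7 CPM at 1 h, at 22.5, 25.2 and 31.8 CPM at 2 h and at 13.4, 16.7 and 21.5 CPM at 4 h. In TTP-KO it lay at 45.9, 38.7 and 74.6 CPM, then 54.8, 91.2 and 38.6 CPM, then 35.2, 34.3 and 25.1 CPM, then 15.4, 18.6 and 12.6 CPM. The 0 and 1 h libraries overlapped, and those of 2 and 4 h lay below all libraries of 0 h in both genotypes, as in 13.7% and 16.1% of all genes in WT and 14.4% and 17.2% in TTP-KO. At 4 h 34.5% was left in WT (log2 change -1.53 ± 0.31, adjusted p = 1.61e-04) and 29.2% in TTP-KO (-1.77 ± 0.31, adjusted p = 1.60e-05). At 2 h the log2 change was -0.91 ± 0.30 in WT (adjusted p = 0.0427) and -0.75 ± 0.30 in TTP-KO (adjusted p = 0.119). The WT call at 2 h was lost without WT 0 h library B, WT 2 h library A or WT 2 h library B (adjusted p = 0.256, 0.179 and 0.114) and with libraries scaled by totals alone (adjusted p = 0.175). The genotypes' changes to 2 h differed by 0.16 ± 0.42 (adjusted p = 1).

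Nfkb1 encodes p105, which is processed to the subunit p50 and in its full form also acts as an inhibitor. It lay at 149, 140 and 165 CPM in WT at 0 h and at 115, 93.6 and 90.3 CPM at 4 h. In TTP-KO it lay at 131, 137 and 141 CPM at 0 h and at 114, 60.2 and 103 CPM at 4 h. The libraries of 4 h lay below those of 0 h in both genotypes, as in 16.1% of all genes in WT and 17.2% in TTP-KO. The libraries of 1 and 2 h, between 132 and 204 CPM, did not. In TTP-KO the libraries of 1 h, at 158, 204 and 176 CPM, lay above all those of 0 h, as in 7.83% of all genes. That change was not called (0.40 ± 0.18, adjusted p = 0.337). The log2 change to 4 h was -0.60 ± 0.18 in WT (adjusted p = 0.0116) and -0.56 ± 0.18 in TTP-KO (adjusted p = 0.02). Scaling by totals alone ended both calls (-0.28, adjusted p = 0.273, and -0.19, adjusted p = 0.483). The WT call was also lost without WT 0 h library C (adjusted p = 0.0616) or 4 h library C (adjusted p = 0.0628). The TTP-KO call was lost without TTP-KO 0 h library C (adjusted p = 0.0603), without 4 h library B (-0.32, adjusted p = 0.267), without 4 h libraries B and C together, the smallest of the set (-0.26, adjusted p = 0.653), and in a fit of the compared groups alone (adjusted p = 0.0955).

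Nfkb2, which encodes p100, the precursor of p52, and Relb, its partner in the non-canonical branch, showed no called change from 0 h. Nfkb2 lay between 19.5 and 66.5 CPM over the 24 libraries, with log2 changes between -0.56 and -0.00. Relb lay between 1.03 and 22.9 CPM, with log2 changes between -0.75 and 0.82, and within a group its libraries differed by up to 19.2 times. Its WT libraries of 4 h lay above all those of 0 h, as in 15.7% of all genes (0.56 ± 0.62, adjusted p = 0.632). Relb at 1 h was the other gene whose libraries separated by genotype. It lay at 17.3, 19.1 and 9.57 CPM in WT and at 6.29, 7.29 and 3.23 CPM in TTP-KO. Of all genes 6.31% were wholly lower in TTP-KO at 1 h. For Relb the log2 difference was -1.45 ± 0.63 (95% interval -2.72 to -0.17, unadjusted p = 0.0268, adjusted p = 0.632). Rela, which encodes p65, the main activating partner of p50, did not change past the test in either genotype, with a log2 change to 4 h of -0.11 ± 0.20 in WT and 0.02 ± 0.20 in TTP-KO. Bcl3, the remaining IkB-family gene, changed by -0.41 ± 0.48 and 0.37 ± 0.49, neither of them called.

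**Figure D2:**
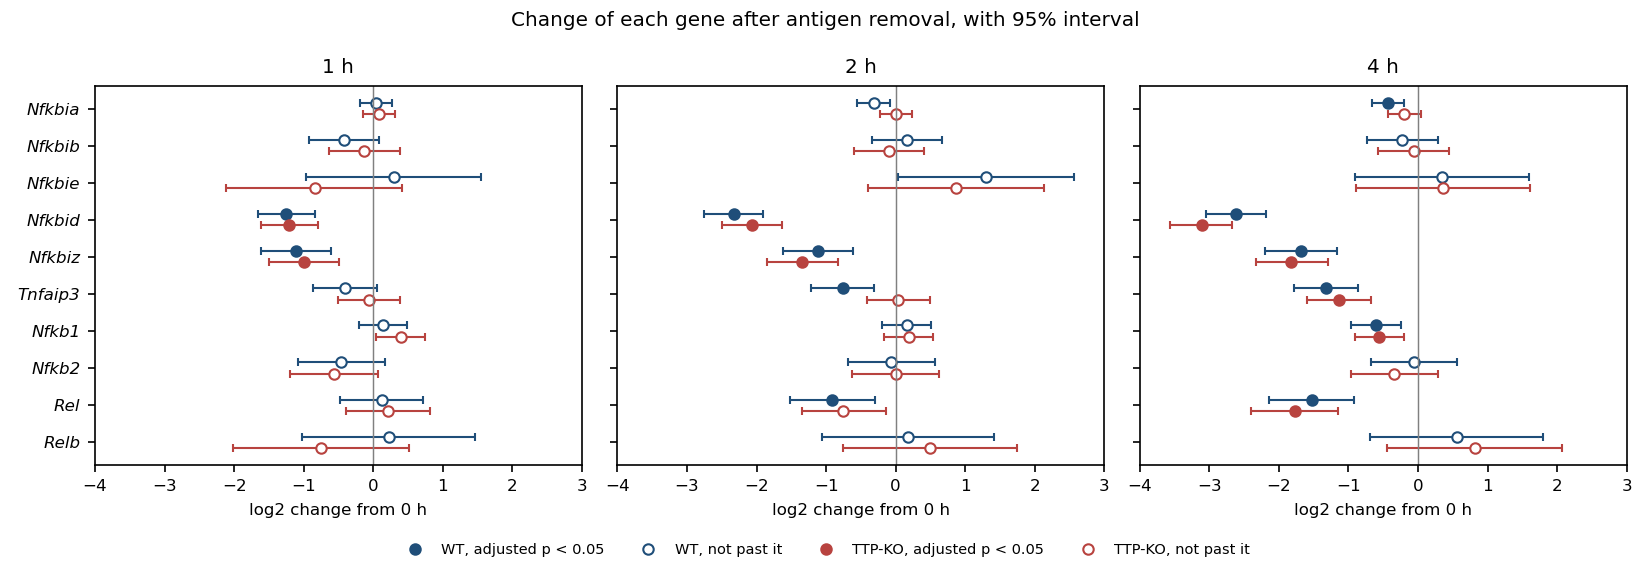
Log2 change from 0 h (horizontal axes) for each gene at 1, 2 and 4 h; points are edgeR estimates with 95% intervals, WT in blue and TTP-KO in red, filled where the adjusted p was under 0.05. Nfkbid and Nfkbiz are filled in all panels, and Tnfaip3, Rel and Nfkb1 are filled in both genotypes at 4 h.

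Counted over the 10 genes, those called lower than at 0 h in WT were 2 at 1 h, 4 at 2 h and 6 at 4 h. Among all tested genes, 1.28%, 6.47% and 9.97% were called lower in these comparisons. In TTP-KO the counts were 2, 2 and 5, against 1.51%, 5.77% and 10.6% of all genes. By DESeq2 the same counts were found. None of the 10 was called higher at any time by either tool, with Nfkb1 at 1 h in TTP-KO and Nfkbie at 2 h in WT higher at an unadjusted p under 0.05. The median log2 change of the 10 was -0.18, -0.18 and -0.52 in WT and -0.34, 0.00 and -0.45 in TTP-KO, while the medians of all genes lay between 0.00 and 0.08. Leaving out 1 library at a time gave 1 to 2, 2 to 4 and 5 to 6 genes in WT and 1 to 2, 2 to 2 and 4 to 5 genes in TTP-KO, where the 1 h count fell to 1 without the Nfkbiz libraries named above and the WT 2 h count fell to 2 without WT 2 h library A. Scaled by totals alone, the counts were 2, 2 and 4 in WT and 2, 2 and 4 in TTP-KO, and 0.912%, 3.20% and 5.78% of all genes in WT and 1.21%, 3.46% and 6.32% in TTP-KO were called lower. That scaling turned the balance of all calls at 4 h, from 875 higher and 1290 lower to 1831 higher and 748 lower in WT and from 964 higher and 1372 lower to 2156 higher and 818 lower in TTP-KO. Nfkbid, Nfkbiz, Tnfaip3 and Rel were among those called lower at 4 h under both scalings.

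Ordered by the estimate at 4 h, the called genes ran Nfkbid, Nfkbiz, Rel, Tnfaip3, Nfkb1 and, in WT, Nfkbia. In WT the interval of Nfkbid, -3.05 to -2.18, touched that of Nfkbiz, -2.20 to -1.17, only at its edge, and in TTP-KO the interval of Nfkbid, -3.56 to -2.67, lay below that of Nfkbiz, -2.33 to -1.30. The intervals of Nfkbiz, Rel and Tnfaip3 overlapped in both genotypes. These are falls in total RNA after the stimulus ended and are not decay rates: the labels name no inhibitor of transcription.

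TTP-KO against WT, 0 of the 10 genes were called at 0, 1, 2 or 4 h by edgeR, and 0 at each time by DESeq2. Of all tested genes 0.526%, 0.502%, 0.518% and 1.82% were called, so few that a count of 0 among 10 does not set these genes apart. At an unadjusted p under 0.05 the counts were 0, 1, 2 and 0, namely Relb at 1 h and Nfkbid and Tnfaip3 at 2 h. Nfkbid at 2 h differed by 0.42 ± 0.20 (95% interval 0.01 to 0.83, adjusted p = 0.669), with overlapping libraries. The median log2 difference of the 10 was -0.07, 0.12, 0.07 and -0.04, against 0.00, -0.01, 0.00 and 0.00 for all genes.

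The intervals show what sizes remain possible. For Nfkbia they ran from -0.41 to 0.06, -0.35 to 0.11, -0.08 to 0.38 and -0.17 to 0.29 at the 4 times, so a change of 1 log2 unit lay outside all of them. For Nfkb1 the 4 intervals lay between -0.51 and 0.45, and for Nfkbid between -0.76 and 0.83. For Nfkbie and Relb they reached up to 1.28 log2 units to either side of the estimate, so a change of 1 log2 unit could lie within them. The genotypes' changes from 0 h did not differ past the test for any of the 10 genes at 1, 2 or 4 h, where 0.0618%, 0.0773% and 0.193% of all genes were called. DESeq2 also called 0 of the 10, and at an unadjusted p under 0.05 there were 0, 1 and 0.

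**Figure D3:**
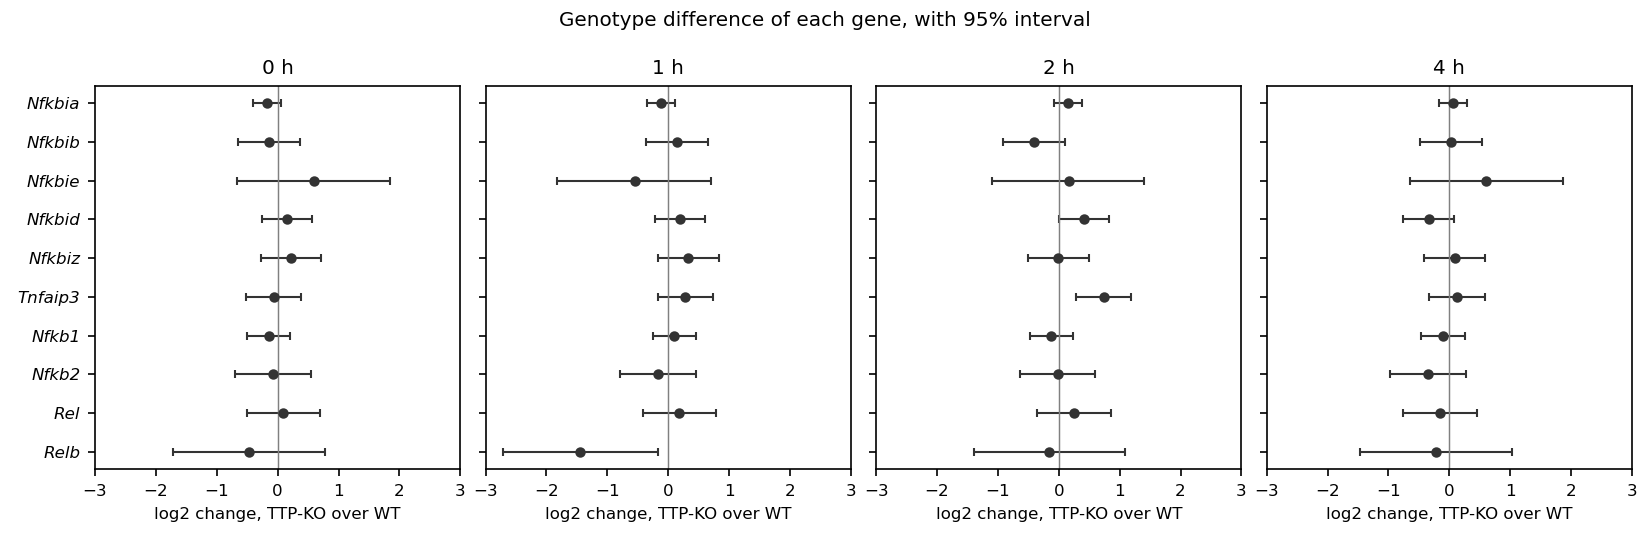
Log2 difference between TTP-KO and WT (horizontal axes) for each gene at 0, 1, 2 and 4 h, with 95% intervals from edgeR. The intervals of Tnfaip3 at 2 h, 0.29 to 1.19, Nfkbid at 2 h, 0.01 to 0.83, and Relb at 1 h, -2.72 to -0.17, lie to one side of 0. No gene passed after adjustment over all genes.

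The genes that hold AU-rich cores were not called by genotype. At 2 h the log2 difference was 0.15 ± 0.12 for Nfkbia, 0.74 ± 0.23 for Tnfaip3 and 0.25 ± 0.30 for Rel. At 0 h it was -0.18 ± 0.12, -0.06 ± 0.22 and 0.09 ± 0.30, at 1 h -0.12 ± 0.12, 0.28 ± 0.22 and 0.18 ± 0.30, and at 4 h 0.06 ± 0.12, 0.12 ± 0.23 and -0.15 ± 0.30. None of these was called.

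The rest of the pathway was read from 3 lists. Of 39 genes that act upstream of NF-kB, from the IgE receptor to the IkB kinase, 0 were higher and 0 lower in TTP-KO at 0, 1 and 4 h, and 1 was lower at 2 h: Ms4a2, the beta chain of the IgE receptor (-0.64 ± 0.16, adjusted p = 0.0326). At an unadjusted p under 0.05 there were 3, 1, 6 and 4. The call of Ms4a2 was lost without WT 2 h library A or C or TTP-KO 2 h library C and in a fit of the compared groups alone, while leaving out other libraries brought up to 2 upstream genes below the threshold. DESeq2 called 0, 0, 2 and 1 upstream genes. Of 18 other subunits and brakes, including Rela and Bcl3, 0 were called at any time by either tool, with 2, 1, 1 and 1 at an unadjusted p under 0.05. Rela differed by -0.24 ± 0.20, -0.60 ± 0.21, -0.36 ± 0.20 and -0.11 ± 0.20 at the 4 times (adjusted p = 0.946, 0.34, 0.675 and 0.949). Bcl3 differed by -0.81 ± 0.49, -0.18 ± 0.49, 0.18 ± 0.48 and -0.03 ± 0.48, with adjusted p of 0.757 at 0 h and 1 at the other times.

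Some of the NF-kB target genes were called by genotype, though 34 to 37 of the 44 tested targets were not called at each time. In TTP-KO 8, 10, 10 and 7 targets were higher at 0, 1, 2 and 4 h and 0 were lower, against 0.448%, 0.402%, 0.410% and 0.943% of all genes called higher. This list was chosen with earlier results of these data known, so the count is not independent evidence that targets as a group are higher. The largest called differences were those of the monocyte chemoattractants Ccl7 and Ccl2. At 1 h Ccl2 differed by 2.92 ± 0.50, Ccl7 by 2.39 ± 0.32, Ptgs2, the inducible cyclooxygenase, by 1.87 ± 0.14, and the chemokine Ccl3 by 1.63 ± 0.09 (adjusted p = 1.93e-04, 1.62e-06, 1.41e-14 and 7.07e-19). The median over the list was 0.25, 0.17, 0.25 and 0.12. DESeq2 called 9, 11, 8 and 8 targets higher and 0 lower. A fit of the compared groups alone called 6 higher at 2 h and 5 at 4 h. Without TTP-KO 4 h library A, 7 targets were higher and 4 lower at 4 h, and without TTP-KO 0 h library C, 8 were higher and 1 lower at 0 h. Among these targets, Tnf, Ptgs2, Ccl3 and Il6 are known from earlier work as mRNAs that TTP binds.

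Markers of macrophages moved with genotype beside these targets. The 20 markers summed to 1377 to 1572 CPM in WT and 3313 to 3337 CPM in TTP-KO at 0 h, to 1132 to 1319 and 2826 to 3214 CPM at 1 h, to 954 to 1038 and 2294 to 2689 CPM at 2 h and to 870 to 902 and 1751 to 2147 CPM at 4 h. Of the 20, 11, 9, 10 and 9 were called higher in TTP-KO, 0 were called lower, and none was at 0 in any group. Called at 2 h were among others Mrc1, the mannose receptor, Csf1r, the receptor for macrophage growth factor, and C1qb, a complement subunit. At the 4 times 9, 11, 10 and 11 of the 20 were not called. Among these was Adgre1, called by genotype at no time. It lay at 81.6 to 102 CPM in WT and 78.0 to 110 CPM in TTP-KO at 0 h, and at 56.7 to 81.7 and 60.2 to 78.9 CPM at 2 h. Without WT 0 h library B the count at 0 h was 6, and without WT 2 h library A that at 2 h was 6. Macrophages also express the chemokine targets and the 10 genes, and the part of these cells in the results was not tested. Other lists also stood apart by genotype at some times. The basophil markers summed to 37751 to 40886 CPM in WT and 42005 to 42646 CPM in TTP-KO at 2 h. The NK and T cell markers summed to 928 to 1022 CPM in WT and 668 to 841 CPM in TTP-KO at 1 h, and to 645 to 730 and 558 to 620 CPM at 2 h. Of 6 tested NK and T cell markers, 0 were called by genotype at 0, 1, 2 or 4 h. At 1 h, 5 of the 9 counted in the sum were at 0 in WT and 7 in TTP-KO, so the sum rests on few genes. The neutrophil markers were lower in TTP-KO at 0 h and higher at 4 h, by the values given below. Of these, Cxcr2 was called lower at 0 and 2 h, and S100a8 and S100a9 higher at 4 h. The 11 dendritic and B cell markers summed to 281 to 343 CPM in WT and 482 to 544 CPM in TTP-KO at 0 h, 291 to 342 and 479 to 557 CPM at 1 h, 253 to 299 and 423 to 446 CPM at 2 h and 227 to 265 and 343 to 414 CPM at 4 h, and Cd74, the invariant chain of MHC class II, was called higher at each time. The summed mast cell markers were lower in TTP-KO, at 1715 to 1847 CPM against 1850 to 2572 CPM in WT at 2 h and 1230 to 1308 against 1640 to 1670 CPM at 4 h, and overlapped at 0 and 1 h. Most of these sums was Cpa3, which is also among the basophil markers. It lay at 1580 to 1715 CPM in TTP-KO and 1658 to 2398 CPM in WT at 2 h, and at 1064 to 1187 and 1377 to 1391 CPM at 4 h. Of 5 tested mast cell markers, 1, Tpsb2, was called lower in TTP-KO at 0 and 4 h, and 0 were called at 1 and 2 h. The part of these lists in the results was not tested. The summed macrophage markers were lower at 4 h than at 0 h in all libraries of both genotypes. The 10 neutrophil markers summed to 4137 to 4460 CPM at 0 h and 2436 to 2689 CPM at 4 h in WT, and to 3505 to 3744 and 3299 to 3519 CPM in TTP-KO. The basophil markers were lower at 4 h too, by the values given above, and the mast cell markers went from 2925 to 3403 CPM at 0 h to 1640 to 1670 CPM at 4 h in WT and from 3014 to 3137 to 1230 to 1308 CPM in TTP-KO. The part of these shifts in the changes with time was not tested either.

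**Figure D4:**
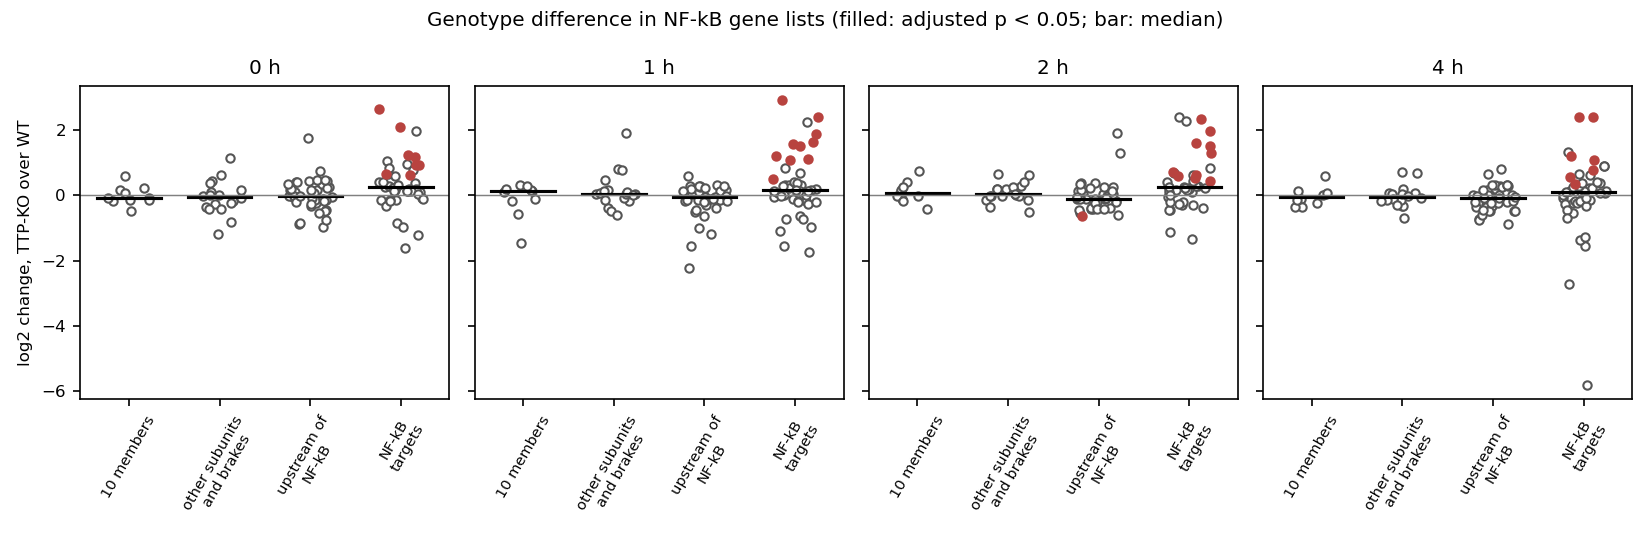
Log2 difference between TTP-KO and WT (vertical axis) for the 10 genes, 18 other subunits and brakes, 39 upstream genes and 44 NF-kB targets at 0, 1, 2 and 4 h; each point is a gene, filled where the adjusted p was under 0.05, and bars are medians. The filled points are targets, all of them above 0, apart from Ms4a2 among the upstream genes at 2 h.

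The other pathway genes were also compared with 0 h. Of all genes, 6.76% were called higher and 9.97% lower at 4 h in WT, and 7.45% and 10.6% in TTP-KO. In the same comparisons, 4 of the 39 upstream genes were higher and 5 lower in WT, and 5 were higher and 8 lower in TTP-KO. Of the 18 other subunits and brakes, 0 were higher and 4 lower in WT, and 1 was higher and 4 lower in TTP-KO. Of the 44 targets, 6 were higher and 15 lower in each genotype. Scaled by totals alone, the upstream genes split into 10 higher and 3 lower in WT and 9 higher and 3 lower in TTP-KO, the targets into 7 and 11 in WT and 9 and 12 in TTP-KO, and the brakes into 2 and 4 in WT and 1 and 4 in TTP-KO.

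For each of the 10 genes, the gene with the most similar profile over the 8 group means of log2 CPM was found among all tested genes. Nfkbid was nearest to Mafk, a small Maf transcription factor (r = 0.995), and Nfkbiz to Socs3, a suppressor of cytokine signalling (r = 0.990). Rel was nearest to Smim3 (r = 0.995), Nfkb1 to Septin11 (r = 0.991), Tnfaip3 to Malt1, a protease of the pathway upstream of the IkB kinase (r = 0.977), and Nfkbia to Sec62 (r = 0.977). Over the 24 single libraries these r values were 0.94, 0.89, 0.83, 0.87, 0.78 and 0.73 in the same order. For the 4 genes without a called change the nearest genes were Spindoc for Nfkbib (0.955), Swt1 for Nfkbie (0.987), Rassf4 for Nfkb2 (0.941) and Tph1 for Relb (0.958), with r over single libraries of 0.36, 0.74, 0.22 and 0.38. These values describe the profiles: the points share libraries and depth, and the best of 12936 genes is high by selection. Among the 10 genes themselves Nfkbid and Nfkbiz were the closest pair, with r of 0.95 over the group means.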

How the data were processed

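Per the labels' protocols, RNA was alkylated with iodoacetamide and made into QuantSeq 3' mRNA libraries. Per the submitters' processing notes, STAR 2.7.10a, cutadapt 3.5 and SAMtools were used, and GRCm39 was the genome build; the notes give no roles. The authors deposited 1 table of 15737 genes that lists expected counts of reads, without normalization, and 12.8% of the values were not whole. For the counting tool, annotation and strand setting the sources used here give nothing. Columns carry letters and the labels carry numbers, so each column was tied to its group and not to a sample. For such columns 1 measure, the reads, was kept. A further 144 per-sample columns with estimates of labelled RNA were not used, so no labelled share or half-life is reported.

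Reads were rounded, scaled with TMM factors, filtered with filterByExpr (12936 genes left) and fitted with edgeR 4.0.16 (R 4.3.3, glmQLFit and glmQLFTest) as 1 mean per group over 24 libraries. Contrasts were TTP-KO against WT at each time, each time against 0 h within a genotype, and the difference of these changes. The threshold for a call was an adjusted p (Benjamini-Hochberg, over all genes tested) under 0.05. Errors of log2 changes are standard errors (SE). The edgeR fit was tested on simulated counts for TTP-KO against WT at 0 h alone, with the same spread for all genes. The other contrasts were not simulated. Replicates differed beyond sampling noise (chi-square per degree of freedom 29.5 to 77.2). Intervals from the fit cover the spread between libraries; reads carry no molecular identifiers in this table.

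All 10 genes were named. Beside them stand the gene with the highest Pearson r to each over the 8 group means, Rela, Bcl3 and Zfp36, and at most 4 called genes per pathway list and comparison, by size. Marker genes of cell types were named as examples, after their values were seen. The 10 genes and all lists were chosen with earlier results of these data known. Alternatives were DESeq2 1.42.0, median-ratio (RLE) factors, library totals alone, no filter, the compared groups alone, a block by letter, each library left out in turn, and the pair of smallest libraries left out. Promoters came from RefSeq (GRCm38.p6) and 3' UTRs from GENCODE on GRCm38, which is not the build named for the reads; genes were joined by symbol or gene ID. Not every window with a core is reported here.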

Additional observations from a re-analysis of the deposited data

How the results depend on the processing

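Of the 10 genes by 13 comparisons, 130 results, 9 moved across the threshold under at least 1 of their alternatives, with 20 losses and 3 gains among 1770 values. No called change turned its direction, and values that were not called could change sign. The count for TTP-KO against WT was 0 at 0, 1 and 4 h under every alternative run; at 2 h it was 1, Tnfaip3, without a filter on low counts, where the adjusted p was 0.0437. The cause was not tested. In WT at 2 h, scaling by totals alone gave 2 genes lower against 4. Without 1 library the counts of called genes ranged from 0 to 0 for TTP-KO against WT at each time and for each difference of changes, and in the changes from 0 h from 1 to 2 (1 h), 2 to 4 (2 h) and 5 to 6 (4 h) in WT and from 1 to 2, 2 to 2 and 4 to 5 in TTP-KO. Nfkbia in WT at 2 h (-0.31, adjusted p = 0.0774) was called without a filter (adjusted p = 0.0482) and without WT 2 h library B (-0.44, adjusted p = 0.0103). The other losses stand beside their results.

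No pairing of libraries by the letters of the columns was seen: deviations from the group means of libraries with the same letter correlated at -0.12 to 0.09 (84 pairs, 0 above 0.1), and 1 of 24 libraries correlated best with its own letter. With 3 libraries per group, a weak link between libraries of the same letter could be missed. With the letter as a replicate block, the counts of called genes among the 10 were 0 at each time for TTP-KO against WT, 2, 4 and 6 in WT, 2, 2 and 5 in TTP-KO and 0 for each difference of changes, and the counts over all genes moved to 75, 76, 72 and 240 for TTP-KO against WT.

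Over all genes, counts moved more. DESeq2 called 227, 196, 230 and 491 genes at 0, 1, 2 and 4 h against 68, 65, 67 and 236 by edgeR. No filter gave 123, 108 and 127 at 0, 1 and 2 h. Fitting the compared groups alone gave 116, 41 and 47 (0, 2 and 4 h). At 4 h, 431, 142 and 137 genes were called without TTP-KO library A, B and C, and 130 without B and C. For the change to 1 h DESeq2 called 606 against 302 in WT and 659 against 354 in TTP-KO. For the differences of changes it called 90, 90 and 181 against 8, 10 and 25, and no filter gave 21, 20 and 89. There, leaving out 1 library gave 5 to 1 h (TTP-KO 0 h B), 50 to 2 h (WT 2 h B), and to 4 h 8 (WT 0 h B), 10 (TTP-KO 0 h A), 15 (TTP-KO 0 h B), 114 (TTP-KO 4 h A), 16 (TTP-KO 4 h B or C) and 58 (both); the compared groups alone gave 16. Scaling by totals alone split the calls by genotype into 48 higher and 23 lower at 1 h (52 and 13 with TMM) and 48 and 31 at 2 h (53 and 14), and the difference of changes to 4 h into 22 and 11 (11 and 14; 11 and 6 with RLE factors). It split the changes from 0 h into 199 and 118 at 1 h (136 and 166) and 1033 and 414 at 2 h (463 and 837) in WT, and 1002 and 447 at 2 h (533 and 746) in TTP-KO. The longer motif TTATTTATT was in 3 of the 10 genes, as was the core. Nfkbie and Relb held the fewest reads of the 10, 17 to 501 a library, and had biological coefficients of variation (spread beyond counting error, as edgeR estimates it) of 0.514 and 0.513, against 0.129 to 0.273 for the others.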
